A study of Mus musculus with 24 samples.

Results

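The regions described are the HindIII fragments of mouse chromosome 17 that start 2 to 20 Mb from the wild-type Oct4 viewpoint, on either side of it. They were chosen by position alone: fragment starts from 15633988 to 33633987 on the side of lower coordinates and from 37641096 to 55641095 on the side of higher coordinates, in the genome build mm9. This gave 9664 of the 25150 fragments of chromosome 17 and of the 99415 fragments listed in the whole series, with 4618 on the lower and 5046 on the higher side. A further 867 fragments of the chromosome lay within 2 Mb of the viewpoint and 14619 lay beyond 20 Mb. The viewpoint is the HindIII fragment whose contacts were read out, taken as chr17:35633988-35641095, and distances were measured from its ends. Contacts were measured by paired-end 4C sequencing in mouse embryonic stem cells. The lines were OCF2ΔOCT4/SOX2, here called the OctSox line, and OCF2ΔYY1, here called the YY1 line, both at passage 7 and of strain C57Bl/6 x 129/Sv. Both lines were assayed at day 0 and at day 3, with 2 libraries labelled as biological replicates per line and day, so 4 groups and 8 libraries. The labels give the genotypes by these names and do not say whether a line is a single clone. They leave unnamed what was done to the cells between the days, which the title links to the start of differentiation. Sample titles of other libraries of these lines name a mutated OctSox or YY1 viewpoint with chromosome 11. Those of the libraries used here name wild-type Oct4. Cell identity could not be checked because no expression was measured. No label says that the replicates came from separate cultures, so every p-value measures the spread between these libraries.

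In 4C, chromatin is crosslinked, digested and ligated, and the DNA ligated to the chosen fragment is sequenced, so the count of a fragment reflects how often it lay close to the viewpoint. Over megabases, contact generally falls with distance, but chromosomes are also divided into large compartments whose active and inactive regions each tend to lie near their own kind. The Oct4 protein, a transcription factor on which pluripotent cells depend, is the product of Pou5f1, a gene that lies within the major histocompatibility complex of the mouse.

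The libraries differed in depth by over an order of magnitude. For replicates 1 and 2 of the OctSox line, 19235 and 5143 counts lay at 2 to 20 Mb at day 0, then 43946 and 1695 at day 3. For the YY1 line these numbers were 90148 and 16755 at day 0, then 16476 and 1864 at day 3. Replicate 2 was thus the shallower library in every group, and replicate 2 of day 3 was the shallowest of each line. In these 2 libraries the 10 fragments of highest count held 20.6% (OctSox) and 17.5% (YY1) of the counts at 2 to 20 Mb, against 2.44% to 6.81% in the 6 deeper libraries. After each library was thinned to 1695 counts, 395 and 400.2 fragments had a count in these 2 libraries and between 714.5 and 1167 in the others. A count of 0 allowed up to 0.177% of the counts at 2 to 20 Mb in the shallowest library and up to 0.00333% in the deepest, YY1 day 0 replicate 1. Whether PCR duplicates were removed is not given in the sources used here. These limits and all intervals on shares cover counting error only. Below, shares are percentages of the counts outside the viewpoint fragment and its direct neighbours, unless another total is named. The part of a library outside them differed widely. It was 333751 of 341882 counts in YY1 day 0 replicate 1 and 111908 of 406507 in OctSox day 0 replicate 1. In the 2 shallow libraries it was 7976 of 18916 (OctSox) and 7090 of 16297 (YY1). Whether this difference bears on the shares was not tested.

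The distances of 2 to 20 Mb held 25.8% ± 4.53 (SD, n = 8) of the counts outside the viewpoint. The shares were 17.2% and 27.6% at OctSox day 0, 27.3% and 21.3% at OctSox day 3, 27.0% and 27.5% at YY1 day 0, and 32.0% and 26.3% at YY1 day 3. OctSox day 0 replicate 1 was the lowest, with a 95% Wilson interval of 16.97% to 17.41%, and YY1 day 3 replicate 1 the highest, with 31.6% to 32.4%. Fragments within 2 Mb held 55.8% ± 8.20 (SD, n = 8) and those beyond 20 Mb held 18.5% ± 5.03 (SD, n = 8).

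Within the range, contact did not fall smoothly with distance. It lay in blocks, with a long highly contacted stretch at 3 to 12 Mb on the lower side and a shorter one at 10 to 13 Mb on the higher side. In every library of both lines and both days, each stretch had more counts per fragment than the farther windows of its side. The higher stretch also lay above the windows at 2 to 7 Mb in every library. Single windows did not always follow. In OctSox day 3 replicate 2 the higher window at 14 to 15 Mb took 1.64% of the counts outside the viewpoint, against 0.752% at 12 to 13 Mb. The borders of the stretches were chosen after the values were seen, so the stretches are described and not tested. Together they cover 12 of the 36 Mb and hold 2769 fragments, 28.6% of all, yet took 69.6% ± 3.26 (SD, n = 8) of the counts at 2 to 20 Mb. The share was 73.1% and 71.9% at OctSox day 0, 72.8% and 63.3% at OctSox day 3, 70.0% and 67.2% at YY1 day 0, and 69.8% and 68.4% at YY1 day 3. The days overlapped within each line. Both OctSox day 0 libraries and OctSox day 3 replicate 1 lay above every YY1 library, while OctSox day 3 replicate 2 was the lowest of the 8. The contacted stretches held 0.648 ± 0.120 (SD, n = 8) counts per fragment per 10,000 counts, against 0.114 ± 0.0216 (SD, n = 8) in the other 24 windows.

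**Figure D1:**
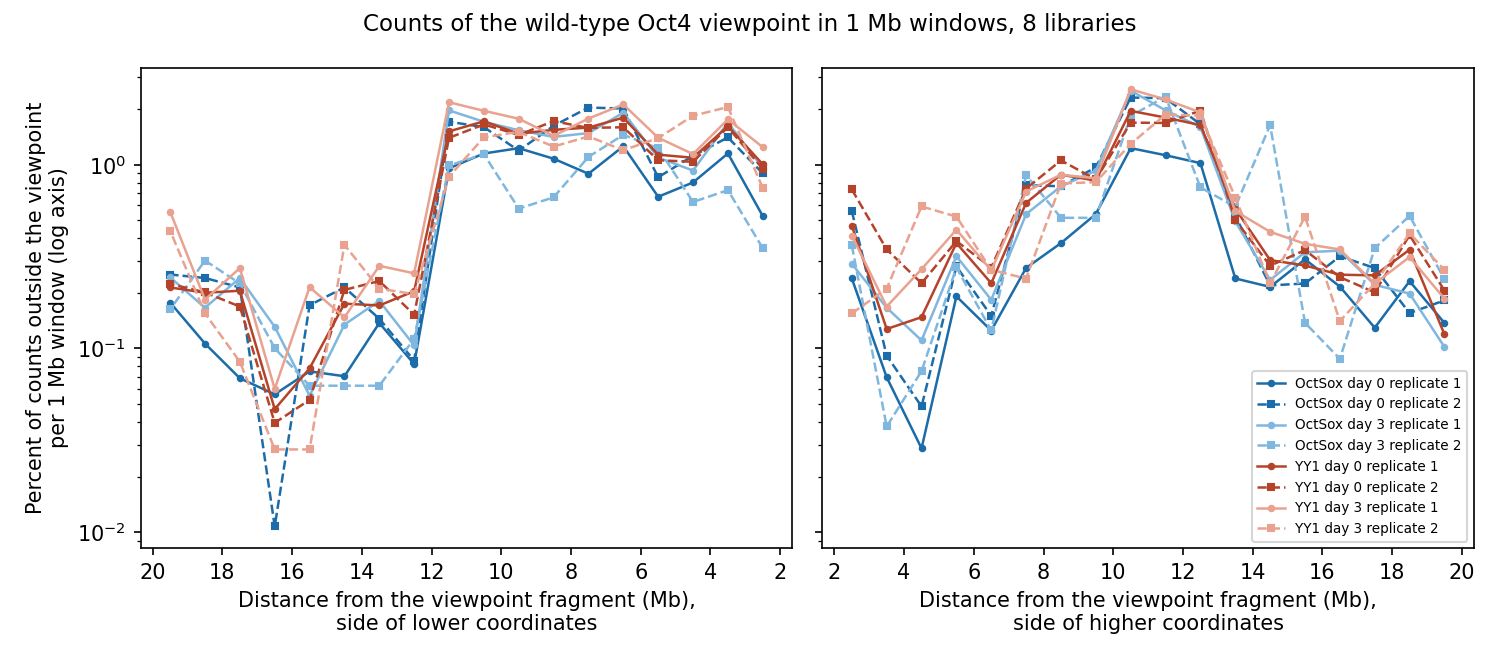
Percent of the counts outside the viewpoint in each 1 Mb window (log axis) against distance, by side, with a line for each of the 8 libraries. All libraries drop at 12 Mb on the lower side and peak at 10 to 13 Mb on the higher side, where the mean of the window at 11 to 12 Mb was 1.92%.

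On the lower side, the stretch at 3 to 12 Mb took 48.6% ± 3.84 (SD, n = 8) of the counts at 2 to 20 Mb. Its 9 windows of 1 Mb had mean shares between 1.07% and 1.67%, with no steady fall with distance. The window at 6 to 7 Mb, chr17:28633988-29633987, was the highest, with 1.67% ± 0.349 (SD, n = 8). It took 1.26% and 2.02% at OctSox day 0, 1.92% and 1.45% at OctSox day 3, 1.80% and 1.60% at YY1 day 0, and 2.13% and 1.199% at YY1 day 3. Near the far end of the stretch, the window at 10 to 11 Mb, chr17:24633988-25633987, still took 1.55% ± 0.290 (SD, n = 8), close to the 1.504% ± 0.409 (SD, n = 8) at 3 to 4 Mb. The window at 2 to 3 Mb, nearer to the viewpoint than the stretch, was lower, with 0.835% ± 0.285 (SD, n = 8). Contact per fragment rose across the border at 3 Mb in 8 of 8 libraries, by 2.05-fold on the geometric mean.

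The sharpest change between neighbouring windows was at 12 Mb on the lower side. The window at 11 to 12 Mb, chr17:23633988-24633987, took 1.45% ± 0.492 (SD, n = 8) and the next, at 12 to 13 Mb, took 0.149% ± 0.0641 (SD, n = 8). Per fragment the inner window was 12-fold above the outer one on the geometric mean, from 5.24-fold to 23.98-fold, and above it in 8 of 8 libraries. The drop was also seen in 0.5 Mb on each side of position 23633988. There, the 107 inner fragments held 5047 pooled counts and the 131 outer fragments held 538. At OctSox day 0 the inner flank held 415 and 130 counts and the outer flank 52 and 3. At OctSox day 3 they held 1157 and 18 against 68 and 1. At YY1 day 0 they held 2303 and 476 against 329 and 29, and at YY1 day 3, 509 and 39 against 56 and 0. All 8 libraries thus fell across this position. In the deepest library 67.3% of the inner and 13.7% of the outer fragments had a count, so the drop was not carried by a few fragments. In 100 kb bins, contact was 0.773 ± 0.300 (SD, n = 8) counts per fragment per 10,000 at 11.8 to 11.9 Mb, 0.238 ± 0.124 (SD, n = 8) at 11.9 to 12 Mb and 0.0452 ± 0.0411 (SD, n = 8) at 12 to 12.1 Mb.

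From 12 to 20 Mb the lower side was poorly contacted. These 8 windows with 2268 fragments took 5.06% ± 0.596 (SD, n = 8) of the counts at 2 to 20 Mb. Per fragment, the stretch at 3 to 12 Mb lay 8.51-fold to 12.93-fold above them, depending on the library. The window at 16 to 17 Mb, chr17:18633988-19633987, was the lowest of all 36, with 0.0591% ± 0.0392 (SD, n = 8) and 497 pooled counts, of which a single fragment held 22.9%. Its shares were 0.0563% and 0.0107% at OctSox day 0, 0.131% and 0.100% at OctSox day 3, 0.0467% and 0.0394% at YY1 day 0, and 0.0602% and 0.0282% at YY1 day 3. Only 11.1% of its 307 fragments had a count in the deepest library. Contact per fragment rose again at 17 Mb in 8 of 8 libraries, by 3.75-fold on the geometric mean.

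**Figure D2:**
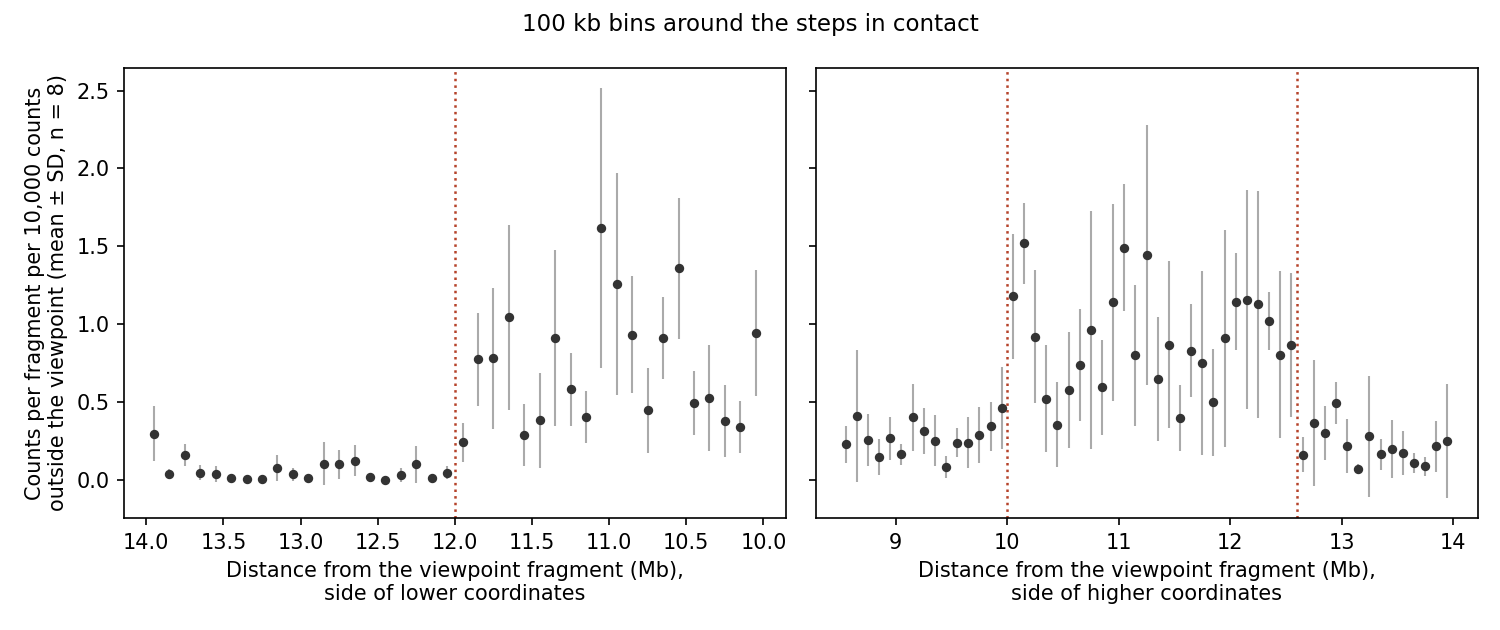
Counts per fragment per 10,000 counts outside the viewpoint in 100 kb bins (mean ± SD over 8 libraries) on the lower side at 10 to 14 Mb and on the higher side at 8.5 to 14 Mb. Dotted lines mark the positions at 12 Mb, and at 10.0 and 12.6 Mb, where contact stepped.

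Within the range, contact on the higher side was low at 2 to 7 Mb, high at 10 to 13 Mb and low again at 13 to 20 Mb. Nearer than the range, this side had 17.53 ± 3.69 (SD, n = 8) counts per fragment per 10,000 at 0 to 1 Mb. At 1 to 2 Mb it had 0.643 ± 0.222 (SD, n = 8). The windows at 2 to 7 Mb, the nearest to the viewpoint within the range, took only 4.95% ± 1.28 (SD, n = 8) of the counts at 2 to 20 Mb over 1408 fragments. Those at 7 to 10 Mb took 8.23% ± 0.988 (SD, n = 8), those at 10 to 13 Mb took 20.96% ± 1.63 (SD, n = 8) and those at 13 to 20 Mb took 9.02% ± 3.25 (SD, n = 8). Per fragment, the stretch at 10 to 13 Mb lay above the nearer windows at 2 to 7 Mb by 5.57-fold to 11.7-fold and above the farther ones at 13 to 20 Mb by 4.16-fold to 9.93-fold. OctSox day 3 replicate 2 gave the lowest of the latter values.

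The 3 windows of this stretch had the highest mean shares of the higher side. The window at 10 to 11 Mb, chr17:45641096-46641095, took 1.93% ± 0.518 (SD, n = 8). Its shares were 1.23% and 2.32% at OctSox day 0, 2.53% and 1.84% at OctSox day 3, 1.96% and 1.69% at YY1 day 0, and 2.57% and 1.30% at YY1 day 3. The window at 11 to 12 Mb, chr17:46641096-47641095, took 1.92% ± 0.405 (SD, n = 8), with 1.13% and 2.30%, 1.98% and 2.34%, 1.80% and 1.69%, and 2.26% and 1.88% in the same order. The window at 12 to 13 Mb, chr17:47641096-48641095, took 1.55% ± 0.439 (SD, n = 8). In each of these windows the day 0 and day 3 libraries overlapped in the OctSox line. In the YY1 line they overlapped at 10 to 11 and at 12 to 13 Mb but not at 11 to 12 Mb.

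Contact per fragment rose 3.02-fold on the geometric mean from the window at 9 to 10 Mb to that at 10 to 11 Mb, from 1.99-fold to 4.42-fold and in 8 of 8 libraries. It fell 3.87-fold from the window at 12 to 13 Mb to that at 13 to 14 Mb, from 1.67-fold to 5.54-fold and in 8 of 8 libraries. In finer bins the rise lay at 10.0 Mb and the fall at 12.6 Mb. In 0.5 Mb on each side of 10.0 Mb, the 100 outer fragments held 6966 pooled counts and the 131 inner ones 3300. In 0.5 Mb on each side of 12.6 Mb, position 48241095, the 102 inner fragments held 7942 and the 136 outer ones 3142. These steps were less steep than the drop at 12 Mb on the lower side.

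The poorly contacted windows at 3 to 5 Mb on the higher side were among the lowest of the range for their distance. For each library a line of log10 counts per fragment on log10 distance was fitted over the 36 windows, and each window was set against it. The window at 3 to 4 Mb lay at 0.152 times the line and that at 4 to 5 Mb at 0.185 times, with only the lower window at 16 to 17 Mb below them, at 0.132 times. At the other end, the higher windows at 11 to 12, 10 to 11 and 12 to 13 Mb lay at 5.74, 5.15 and 4.77 times the line. The lower windows at 10 to 11 and 11 to 12 Mb followed, at 4.67 and 4.28 times. Of the 36 windows, 14 lay above the line in all 8 libraries, 13 lay below it in all 8, and 9 lay on either side. A single line was thus a poor description of contact here, and its slope was -0.65 ± 0.14 (SD, n = 4) at day 0 and -0.54 ± 0.20 (SD, n = 4) at day 3.

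The lower side as a whole was contacted more than the higher side. Counts per fragment on the lower side exceeded those on the higher side by 1.44-fold, a mean log2 ratio of 0.53 ± 0.25 (SD, n = 8). The log2 ratios were 0.77 and 0.55 at OctSox day 0, 0.62 and -0.05 at OctSox day 3, 0.62 and 0.47 at YY1 day 0, and 0.64 and 0.59 at YY1 day 3. They lay above 0 in 7 of 8 libraries, and an exact two-sided sign permutation over the 8 libraries gave p = 0.0156, where 0.00781 is the smallest it can give. The ratio below 0 came from OctSox day 3 replicate 2, in which a single higher-side fragment, chr17:50114727-50115330, held 128 of the 1695 counts. Without both shallow libraries the mean was 0.61, with an exact p = 0.0313.

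The side that was higher changed with distance. At equal distance the lower side had more counts per fragment in all 8 libraries at 8 of the 18 distances, all of them from 2 to 10 Mb. The ratio of lower over higher side was 13.3 on the geometric mean at 3 to 4 Mb, from 5.35 to 22.4, and 10.4 at 6 to 7 Mb, from 5.49 to 16.5. At 10 to 12 Mb, where both sides hold a contacted stretch, the ratios were 0.906 and 0.745 and the libraries differed in direction. The higher side was above in all 8 libraries at 3 distances, 12 to 13, 13 to 14 and 15 to 16 Mb, and at 12 to 13 Mb the ratio was 0.0787, from 0.0438 to 0.127. At the other 7 distances the libraries differed in direction.

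**Figure D3:**
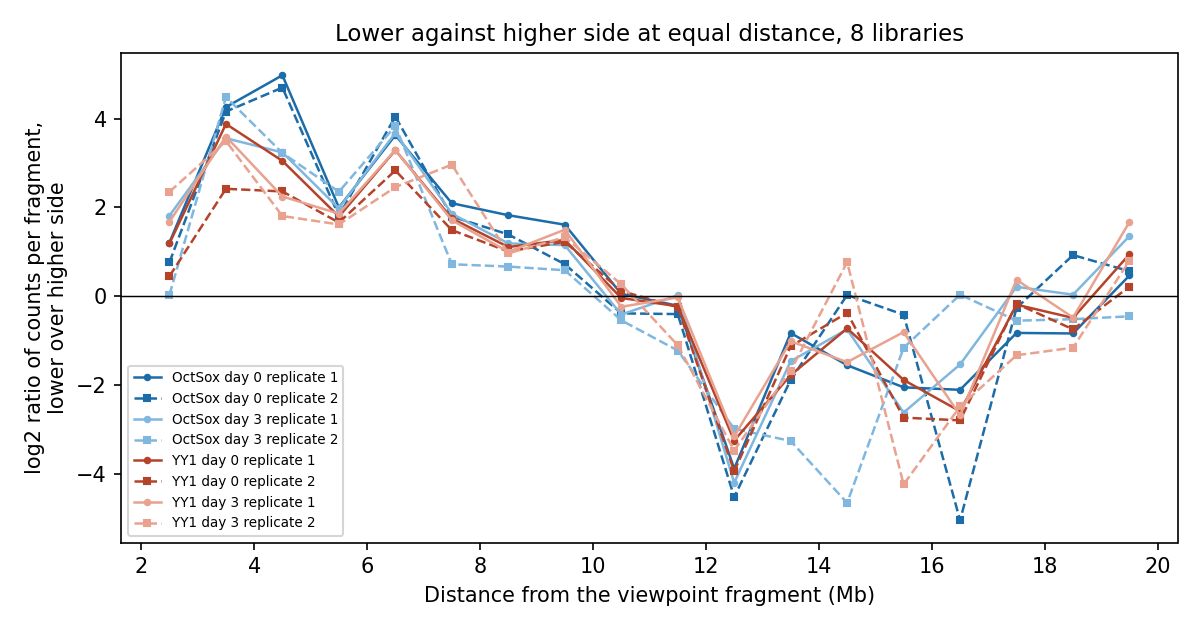
The log2 ratio of counts per fragment, lower over higher side, at each distance, with a line for each of the 8 libraries and 0 marking equal contact. All libraries lie above 0 from 2 to 10 Mb and below 0 at 12 to 13 Mb.

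The layout was shared by the libraries to about the same degree within and between groups. Over the 36 windows, Spearman's rho of the shares was 0.879 to 0.966 among the 15 pairs of the 6 deeper libraries and 0.695 to 0.876 among the 13 pairs with a shallow library. In the deeper libraries, the 2 pairs within a group had 0.920 and 0.942, and the 4 pairs that differed in both line and day had 0.916 to 0.966. These are descriptions, since the windows of all libraries share the same fragments and the viewpoint's surroundings. Over single fragments the deeper pairs reached only 0.267 to 0.588.

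The blocks can also be described by how many fragments were contacted at all. The stretches were chosen from these same counts, so this is no independent support for them. In the deepest library, 80.2% of the fragments of the contacted stretches had at least 1 count, against 38.0% of those in the other windows. Over all 8 libraries the share averaged 43.5% in the stretches, from 8.78% to 80.2%, and 14.6% elsewhere, from 2.20% to 38.0%. Of the 9664 fragments, 3584 (37.1%) had no count in any library. A count in 6 or more libraries was found for 535 fragments. Of these, 89.5% lay in the contacted stretches, which hold 28.65% of the 9664 fragments. Only 16 fragments had a count in all 8 libraries, 15 of them in the stretches.

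**Figure D4:**
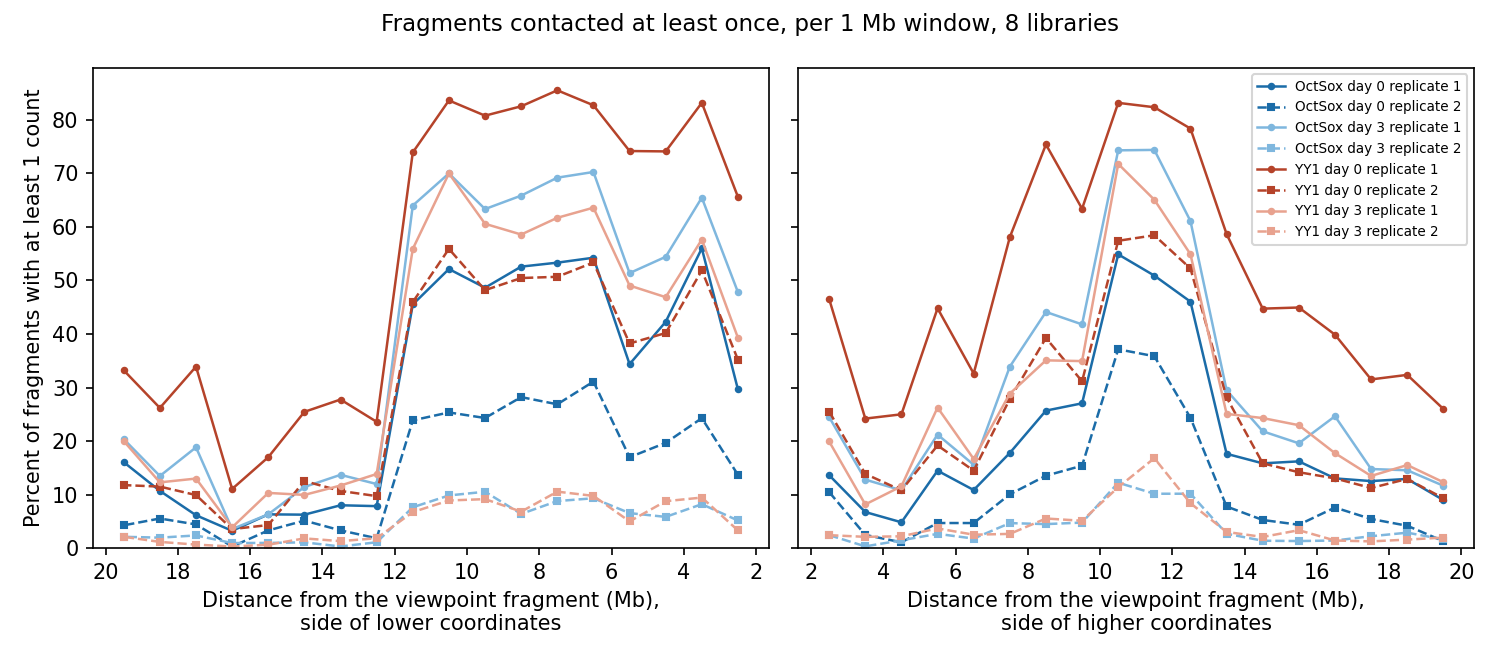
Percent of the fragments of each 1 Mb window with at least 1 count, against distance, by side, with a line for each of the 8 libraries. The lines keep the same shape at different heights, and the shallow libraries, replicate 2 of day 3 in both lines, lie lowest at most distances.

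Fragments of the contacted stretches were longer and fewer per Mb than the others. Their median length was 3058 bp, against 2502 bp in the other windows, and there were 230.8 against 287.3 of them per Mb. Over the 36 windows, the number of fragments and the mean share had a Pearson's r of -0.84 and a Spearman's rho of -0.68, with rho between -0.53 and -0.69 in single libraries. These points share libraries and base composition, which sets where HindIII cuts, and the part of fragment density in the layout was not tested. Within the stretches, fragments of 33 to 1256 bp and those of 4949 to 33341 bp had a count in the deepest library about equally often, 82.6% and 81.6%. In the other windows these shares were 39.1% and 35.9%. In this library, each length class thus had a count more often in the stretches, which were chosen from these counts, than in the other windows. The longest class took 42.2% of the counts of the stretches, from 848 of 2769 fragments, and 24.9% of those of the other windows, from 1568 of 6895.

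Single fragments carried little of the signal in the deeper libraries. Among the 16 fragments with a count in every library, chosen here after their values were seen, chr17:47688604-47698002 on the higher side at 12.05 Mb had the most pooled counts. It held 25 and 8 counts at OctSox day 0, 95 and 2 at OctSox day 3, 176 and 29 at YY1 day 0, and 9 and 1 at YY1 day 3. Another was chr17:45706340-45711568, just inside the rise at 10.0 Mb, with 50 and 5, 77 and 5, 50 and 6, and 18 and 6 in the same order. The fragment outside the stretches was chr17:43006547-43010260, on the higher side at 7.37 Mb, with 74 pooled counts.

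Of the 10 fragments of highest mean share, 8 had their highest share in a shallow library and 2 in a deeper one. The highest, chr17:50114727-50115330, had 0.201% ± 0.567 (SD, n = 8), all but 2 of its counts from OctSox day 3 replicate 2. The next, chr17:32096208-32100503 on the lower side at 3.54 Mb, had 0.139% ± 0.296 (SD, n = 8), with 60 counts in YY1 day 3 replicate 2 and 18 in OctSox day 3 replicate 2, against 0 to 32 in the deeper libraries. Counts were spread over more libraries for chr17:46892586-46899802, on the higher side at 11.25 Mb, with 0 and 14 counts at OctSox day 0, 65 and 37 at OctSox day 3, 84 and 58 at YY1 day 0, and 34 and 13 at YY1 day 3. The 2 with their highest share in a deeper library were chr17:46366492-46378755, with 61 counts in OctSox day 0 replicate 2, and chr17:47937192-47938026, with 181 in YY1 day 0 replicate 2.

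At the edges of the range single fragments were sparse. The innermost member of the lower side, chr17:33633421-33640049, had between 0 and 9 counts per library, and the fragment just nearer than 2 Mb had 1 count in a single library. The outermost member of the lower side, chr17:15636538-15640199, had between 0 and 36 counts, and the fragment just beyond 20 Mb had none in any library. On the higher side the innermost member had between 0 and 13 counts and the outermost had none, as had the fragments just outside both edges.

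Set against the rest of the chromosome, windows of the contacted stretches reached mean levels near that of the higher window at 1 to 2 Mb. None reached the mean of the lower window at 1 to 2 Mb, 1.37 ± 0.425 (SD, n = 8) counts per fragment per 10,000. The higher window at 10 to 11 Mb had 0.815 ± 0.218 (SD, n = 8) counts per fragment per 10,000, and the higher window at 1 to 2 Mb had 0.643 ± 0.222 (SD, n = 8). The former was above the latter in 6 of 8 libraries, with a median ratio of 1.32 and a range of 0.748 to 2.15, so the libraries did not share a direction. The higher window at 11 to 12 Mb was above that at 1 to 2 Mb in 5 of 8 libraries. For the lower window at 10 to 11 Mb, set against the same higher window, this held in 4 of 8, with a median ratio of 1.01. Beyond 20 Mb, the highest window lay at 21 to 22 Mb on the higher side, with a mean of 0.463, and 10 of the 36 windows at 2 to 20 Mb exceeded it.

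Contact was next compared between day 3 and day 0 in the 36 windows, with edgeR's quasi-likelihood test and Benjamini-Hochberg adjustment over all 93 windows of the chromosome. No window at 2 to 20 Mb passed an adjusted p of 0.05 in either line or over both lines. Over the whole chromosome 0.0% passed in the OctSox line, 1.08% in the YY1 line (1 of 93) and 0.0% over both lines. At an unadjusted p under 0.05 there were 1, 2 and 2 of the 36 windows in these comparisons, against 3, 11 and 13 of the 93. DESeq2 called 0 of the 36 in each, against 0 (0.0%), 6 (6.45%) and 7 (7.53%) of the 93. The windows with a p under 0.05 thus lay mostly outside the range in the YY1 line and over both lines. The precision differed: over both lines, 20 of the 36 windows had a 95% interval that lay within a 2-fold change either way, against 14 in the YY1 line and 1 in the OctSox line. For those windows a larger change of contact lay outside the interval, and for the others the interval reached beyond a 2-fold change. Over both lines the window at 11 to 12 Mb on the higher side, for instance, had a log2 fold change of -0.02 (95% interval -0.47 to 0.44).

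The 3 windows of smallest p over both lines were lower at day 3 in 2 cases and higher in the third, and none passed. Over both lines the window at 2 to 3 Mb on the higher side had a log2 fold change of -0.99 ± 0.35 (SE; adjusted p = 0.189 with edgeR). Its shares were 0.240% and 0.559% at OctSox day 0 and 0.289% and 0.364% at day 3, which overlapped. In the YY1 line they were 0.466% and 0.733% at day 0, then 0.412% and 0.155% at day 3, which did not overlap, and the log2 fold change there was -1.36 ± 0.46 (SE; adjusted p = 0.235 with edgeR). The window at 8 to 9 Mb on the lower side had -0.64 ± 0.25 (SE; adjusted p = 0.232 with edgeR) over both lines, with 1.08% and 1.63%, then 1.42% and 0.664% in the OctSox line, and 1.55% and 1.73%, then 1.44% and 1.26% in the YY1 line. The third was the higher window at 4 to 5 Mb, with 0.99 ± 0.47 (SE; adjusted p = 0.314 with edgeR), whose shares are given with the line comparison. The direction of the whole set hung on the scaling. With TMM scaling 9 of the 36 windows lay above 0 over both lines, with a median of -0.22 against 0.03 for all 93 windows. When libraries were scaled by their total counts, 27 of the 36 lay above 0, with a median of 0.11 against 0.36. Within the OctSox line the windows above 0 went from 14 to 21 and within the YY1 line from 10 to 26. Relative to all windows, the windows at 2 to 20 Mb were lower under both scalings in the comparison over both lines. Beside this, the share of counts beyond 20 Mb ran from 11.3% to 17.03% at day 0 and from 19.6% to 25.4% at day 3, and its part in these values was not tested.

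Leaving out YY1 day 3 replicate 1, so that the shallow library stood alone for day 3 and only the 2 day 0 libraries gave the spread, gave 3 calls among the 36 windows in the YY1 line with edgeR, against 19 of the 93 (20.4%). They were the higher window at 7 to 8 Mb (log2 fold change -1.56), the lower window at 11 to 12 Mb (-0.83) and the lower window at 4 to 5 Mb (0.73), named here because they were called. With all 4 libraries none of these passed. In the OctSox line the window with the smallest p, at 14 to 15 Mb on the higher side, had a log2 fold change of 1.72 ± 0.75 (SE; adjusted p = 0.930 with edgeR). It took 0.216% and 0.220% at day 0, then 0.236% and 1.64% at day 3, and the last value held the fragment with 128 counts. Without that library the log2 fold change was -0.32.

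Day 3 shares lay above day 0 shares without overlap in 6 of the 36 windows in the OctSox line, where 31.2% of the windows of the chromosome did so, and in 9 in the YY1 line, where 41.9% did. Only the higher window at 4 to 5 Mb and the lower window at 5 to 6 Mb did so in both lines, 2 of 36, against 16.1% (15 of 93) over the chromosome. The latter took 0.669% and 0.854% at OctSox day 0, 1.09% and 1.23% at OctSox day 3, 1.13% and 1.06% at YY1 day 0, and 1.40% and 1.40% at YY1 day 3. Its log2 fold change over both lines was 0.15 ± 0.22 (SE; adjusted p = 0.807 with edgeR). Day 3 shares lay below day 0 shares without overlap in 1 window in the OctSox line, against 1.08% over the chromosome, and in 4 in the YY1 line, against 7.53%. No window did so in both lines (0.0% over the chromosome).

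**Figure D5:**
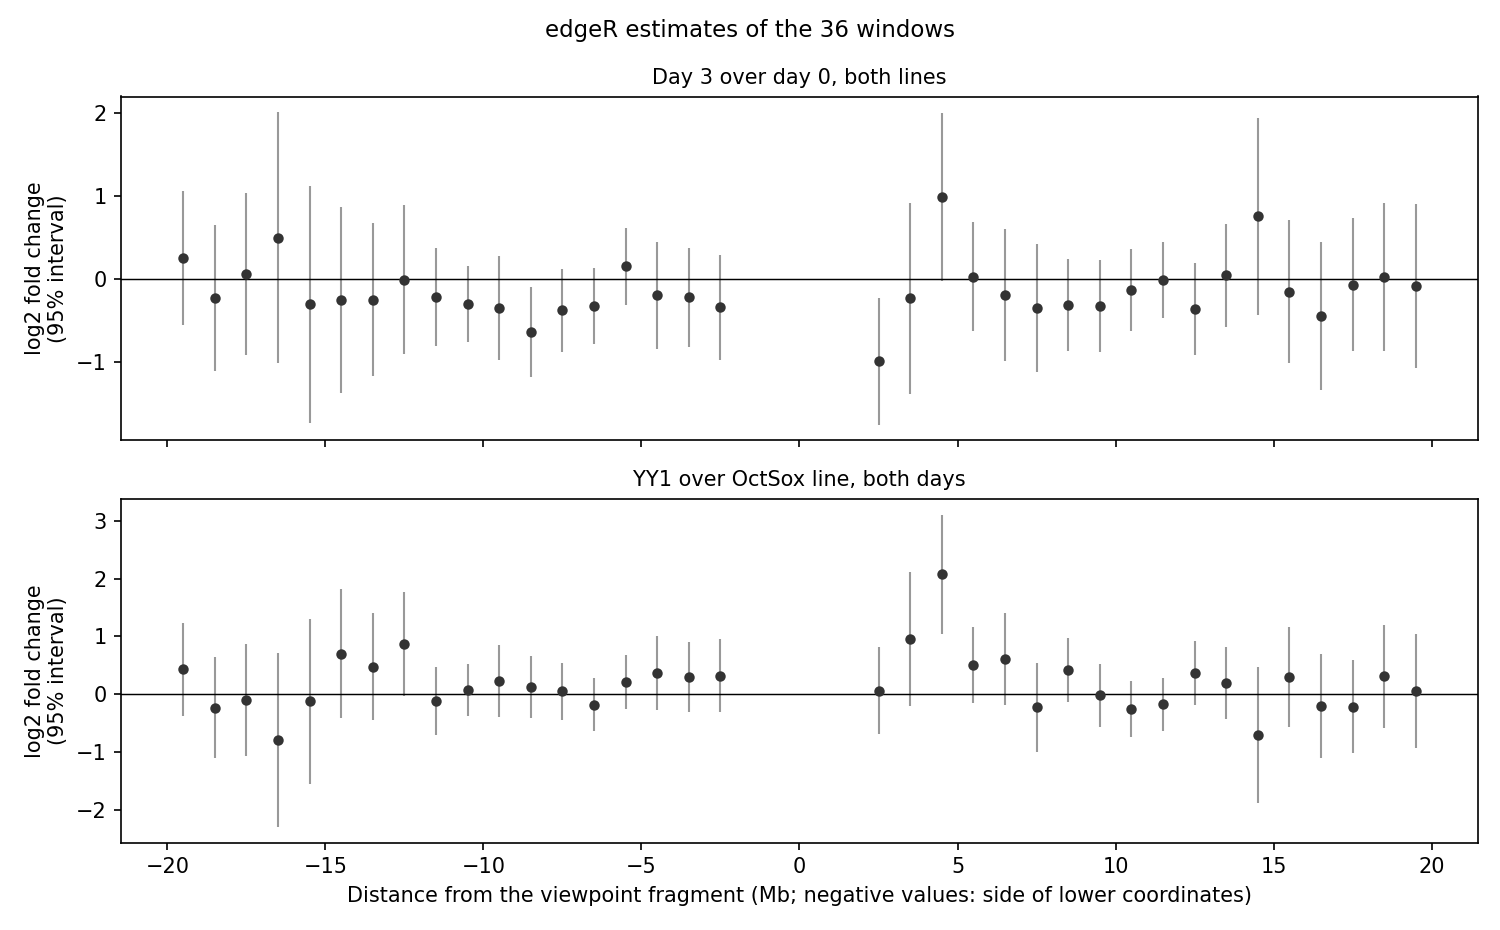
Log2 fold change with its 95% interval from edgeR for each of the 36 windows against distance (negative on the lower side), for day 3 over day 0 in both lines and for the YY1 over the OctSox line in both days. No window passed an adjusted p of 0.05, and the higher window at 4 to 5 Mb has the largest line difference, 2.07.

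Between the lines, no window passed with edgeR either, and 0.0% of the 93 windows of the chromosome did. At an unadjusted p under 0.05 there was 1 of the 36, against 2 of the 93, and DESeq2 called that same window alone (1.08% of the 93), at 4 to 5 Mb on the higher side, chr17:39641096-40641095. Its shares were 0.0286% and 0.0484% at OctSox day 0, 0.111% and 0.0752% at OctSox day 3, 0.148% and 0.226% at YY1 day 0, and 0.270% and 0.592% at YY1 day 3. All 4 YY1 libraries thus lay above all 4 OctSox libraries, and in both lines day 3 lay above day 0. Behind these values stood 32, 9, 178 and 6 counts in the OctSox libraries and 494, 138, 139 and 42 in those of the YY1 line. YY1 over OctSox gave a log2 fold change of 2.07 ± 0.48 (SE; 95% interval 1.04 to 3.11; adjusted p = 0.0755 with edgeR), and DESeq2 gave an adjusted p of 0.00222. The edgeR adjusted p was 0.0241 with libraries scaled by total counts and 0.0294 without YY1 day 3 replicate 1. It was 0.239 when each fragment with a count was counted once, where the log2 fold change was 0.73. It was 0.607 without both shallow libraries, where the log2 fold change was 1.66, and 0.337 without the window's highest fragment.

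The 4 YY1 libraries lay above the 4 OctSox libraries in 5 of the 36 windows, where 5.38% of the 93 windows of the chromosome (5, the same windows) did so, and below them in none, where 0.0% did. Of these 5 windows, 4 lay on the poorly to moderately contacted higher side at 4 to 5, 5 to 6, 6 to 7 and 8 to 9 Mb, and the other on the lower side just beyond the drop, at 12 to 13 Mb. The window at 6 to 7 Mb, for instance, took 0.125% to 0.184% in the OctSox line and 0.227% to 0.276% in the YY1 line, a log2 fold change of 0.61 ± 0.37 (SE; adjusted p = 0.796 with edgeR). The window at 12 to 13 Mb on the lower side took 0.0822%, 0.0860%, 0.104% and 0.113% in the OctSox libraries, against 0.205%, 0.153%, 0.256% and 0.197% in those of the YY1 line, with 0.87 ± 0.42 (SE; adjusted p = 0.796 with edgeR). The OctSox line also had the library with the lowest share at 2 to 20 Mb, and its part in these orders was not tested. For 17 of the 36 windows the 95% interval of the line difference lay within 2-fold either way.

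The day effect was not shown to differ between the lines in any of the 36 windows: no window passed the edgeR interaction test (0.0% of the 93 windows of the chromosome), 0 had an unadjusted p under 0.05 against 4 of the 93, and DESeq2 called 0 (0.0% of the 93). These differences were poorly measured, and no window had an interval within 2-fold either way.

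Single fragments were tested with edgeR over all fragments of the chromosome with enough counts. Few members qualified: 348 of 9664 in the OctSox line, 369 in the YY1 line and 695 over both lines. Of these 695, 85.3% lay in the contacted stretches, which hold 28.65% of the 9664 members. No member passed an adjusted p of 0.05 for day 3 against day 0 in the OctSox line (0.0% of all fragments tested), in the YY1 line (0.279%, 2 of 716) or over both lines (0.0%). None passed between the lines (0.0%) or in the difference of the day effect (0.0%). At an unadjusted p under 0.05 there were 17, 22, 34, 40 and 43 members in these 5 tests, against 17, 61, 59, 62 and 58 of all fragments tested. These were 4.9%, 6.0%, 4.9%, 5.8% and 6.2% of the members tested, against 2.3%, 8.5%, 4.6%, 4.9% and 4.6% of all. DESeq2 called 0, 1, 6, 1 and 0 members, against 0 (0.0%), 4 (0.559%), 8 (1.18%), 1 (0.0787%) and 0 (0.0%) of all fragments to which it gave an adjusted p, and all 8 of those calls were higher at day 3 or in the YY1 line. The median SE over the tested members was between 1.78 and 3.52 on the log2 scale, and a 95% interval within a 2-fold change either way was found for 2 members over both lines, 1 between the lines, 1 in the difference of the day effect and 0 within each line.

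The members of smallest p had few counts in most libraries. In the OctSox line, chr17:45655977-45661452, at 10.01 Mb on the higher side, had 0 and 0 counts at day 0 and 71 and 23 at day 3 (adjusted p = 1.00 with edgeR). It had 1 and 0, then 12 and 0, in the YY1 line, and was among the DESeq2 calls over both lines (adjusted p = 0.00352). In the YY1 line, chr17:31450420-31454545, at 4.18 Mb on the lower side, had 13 and 0 counts at day 0 and 14 and 23 at day 3 (adjusted p = 0.225 with edgeR and 0.0156 with DESeq2). The DESeq2 call between the lines was chr17:32354870-32355955, at 3.28 Mb on the lower side. It had 0, 0, 8 and 0 counts in the OctSox libraries and 63, 33, 9 and 27 in the YY1 libraries (adjusted p = 0.645 with edgeR and 0.0270 with DESeq2). Without YY1 day 3 replicate 1, edgeR called 18 members in the YY1 line, 17 of them higher at day 3, against 112 of all 1493 fragments tested (7.5%), with only the 2 day 0 libraries to give the spread. Without YY1 day 3 replicate 2 it called 2 members, where 0.709% of all fragments tested over the chromosome were called. These members were chr17:46343057-46346950 (higher at day 3) and chr17:47937192-47938026 (lower). Without OctSox day 0 replicate 1 or without OctSox day 3 replicate 1 edgeR called 1 member in the OctSox line. It was the fragment chr17:50114727-50115330 with 128 counts. Of all fragments tested over the chromosome, 0.395% and 0.467% were called in these 2 fits.

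For each library, 5 summaries were compared between days and between lines by exact two-sided permutation of labels within line or within day. With 36 arrangements the smallest possible p was 0.0556, so none could pass 0.05, and adjusted over the 10 tests none was below 0.556. The share of counts at 2 to 20 Mb was 24.8% ± 5.10 (SD, n = 4) at day 0 and 26.7% ± 4.41 (SD, n = 4) at day 3 (exact p = 0.667), and 23.4% ± 5.05 (SD, n = 4) in the OctSox and 28.2% ± 2.58 (SD, n = 4) in the YY1 line (exact p = 0.333). The share of these counts on the lower side was 58.2% ± 2.20 (SD, n = 4) at day 0 and 55.5% ± 5.79 (SD, n = 4) at day 3 (exact p = 0.667). It was 55.9% ± 6.24 (SD, n = 4) in the OctSox and 57.8% ± 1.33 (SD, n = 4) in the YY1 line (exact p = 0.778). The share that lay at 2 to 5 Mb was 14.2% ± 2.69 (SD, n = 4) in the OctSox and 17.8% ± 2.51 (SD, n = 4) in the YY1 line (exact p = 0.0556, adjusted 0.556). The OctSox libraries had 16.4%, 14.9%, 15.2% and 10.3%, those of the YY1 line had 16.5%, 17.8%, 15.6% and 21.3%, and the lines overlapped. The 2 extreme values came from the shallow libraries. By day this share was 16.4% ± 1.18 (SD, n = 4) and 15.6% ± 4.54 (SD, n = 4) (exact p = 0.667). The share in the 10 fragments of highest count was 4.21% ± 1.85 (SD, n = 4) at day 0 and 11.04% ± 9.35 (SD, n = 4) at day 3 (exact p = 0.444), and without both shallow libraries day 3 was lower by 1.19 percentage points. Between the lines it was 8.60% ± 8.14 (SD, n = 4) in the OctSox and 6.65% ± 7.29 (SD, n = 4) in the YY1 line (exact p = 0.444). The slope on distance differed by 0.11 between days (exact p = 0.444) and by -0.21 for YY1 minus OctSox (exact p = 0.111).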

How the data were processed

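The authors deposited raw counts per HindIII fragment of chromosome 17, with a list of fragment positions whose order was taken to match the count rows. The submitters' processing notes name Bowtie and the build mm9. Bowtie's version, how fragments were counted and any filter on reads: not given in the sources used here. Coordinates are 1-based mm9 as deposited. No gene or sequence is assigned to a fragment, since no mm9 genome or annotation was used here. The members and lists were chosen with earlier results of these data known.

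The viewpoint was taken as the fragment of highest pooled count, since no label gives its position; this fragment and its 1 nearest on each side did not enter any total. Counts were summed in 1 Mb windows of distance. Fragments kept by filterByExpr (minimum count 10) and all windows entered edgeR's quasi-likelihood test (version 4.0.16, under R 4.3.3, with TMM, glmQLFit, glmQLFTest, Benjamini-Hochberg at 0.05), with DESeq2 1.42.0 as an alternative. Within a line only its 4 libraries entered; otherwise all 8 did, with line or day as a covariate. The SE of a log2 fold change was computed from its size and the square root of F. The tests were tried on simulated counts. Shares and slopes were compared by exact permutation over libraries. The other alternatives were scaling by total counts or by the counts at 2 to 20 Mb, no filter, nothing left out at the viewpoint, windows shifted by 0.5 Mb or without their highest fragment, presence in place of counts, a replicate block, and leaving out libraries. Named were, per comparison, windows and fragments past the threshold or else the 3 of smallest p, those highest and lowest against the distance line, and those of highest mean share. Other software was scipy 1.17.1, numpy 2.4.6, matplotlib 3.10.9 and pandas 2.3.3, under Python 3.11.15.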

Additional observations from a re-analysis of the deposited data

How the results depend on the processing

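The excess of the lower side kept its direction and its exact p under 0.05 in all alternatives run, with mean log2 ratios of 0.31 with presence in place of counts, 0.40 per Mb and 0.49 to 0.61 on leaving out a library. In each library both stretches lay above the farther windows of their side per fragment, so the layout in blocks does not rest on one of them. The 2 shallow libraries limit what the day comparisons can show.

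Differences between groups were less stable, and none of the summaries could pass 0.05. By day, the difference in the share at 2 to 20 Mb was -5.88 points with presence in place of counts, -5.21 with nothing left out at the viewpoint, and -0.728 to 4.50 on leaving out a library. For the lower side's share it was 0.0221 with presence, 0.488 without both shallow libraries and -5.57 to 0.267 on leaving one out by day, and by line -3.37, -0.851 and -1.07 to 4.77. On leaving one out, the share at 2 to 5 Mb by day gave -2.22 to 0.641 and that of the 10 highest fragments by line -6.29 to 2.38; without both shallow libraries the latter by day gave -1.19. The cause was not tested.

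Calls of single fragments ranged from 0 to 1 in the OctSox line and 0 to 18 in the YY1 line on leaving out a library, with 1 in the YY1 line by DESeq2 and 2 without both shallow libraries. Over both lines DESeq2 called 6 and total-count scaling 1, the lower fragment from 32096208; between the lines DESeq2 called 1. For windows, leaving one out gave 0 to 3 in the YY1 line and 0 to 1 between the lines, and DESeq2 and total-count scaling each called 1 between the lines. The direction turned for the higher window at 14 to 15 Mb in the OctSox line (-0.32 without OctSox day 3 replicate 2 or both shallow libraries, -0.91 without its highest fragment, -0.14 with presence) and in the difference between lines (0.16, 0.36, 0.73 and 0.11). On leaving out a library these values ran from -0.32 to 2.56 and from -2.62 to 0.16. It also turned for the lower window at 15 to 16 Mb in the difference between lines (-0.17 without YY1 day 3 replicate 1, up to 2.59 without another library), for the fragment from 25840881 in the YY1 line (-0.91 without YY1 day 3 replicate 2 or both shallow libraries, up to 3.94 without another) and for that from 32096208 over both lines (-1.77 without both).

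Deviations of same-numbered libraries over 93 windows correlated at -0.118 (OctSox days), -0.033 (YY1 days), -0.227 (lines at day 0) and 0.0004 (lines at day 3). These values showed no pairing by replicate number. With 2 libraries per group, and a shallow one in each line at day 3, they cannot exclude a pairing. With the replicate block, 0 members were called in every comparison of fragments and windows, as without it, and the summaries' adjusted p was 0.625 or more. The crossed pairing for the OctSox days, added after seeing the data, also gave 0.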
